A study of Mus musculus with 4 samples.

Results

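Heat shock proteins and DnaJ proteins are the general protein-folding machinery of the cell, and their transcripts were followed here in stromal cells of mouse pancreatic cancer. The members were the rows of the deposited count table whose gene name starts as a numbered HSP70 (Hspa), HSP110 (Hsph), HSP90, chaperonin (Hspd1, Hspe1) or small heat shock protein (Hspb) gene, or as a Dnaja, Dnajb or Dnajc gene, which is 74 of 22609 genes. They comprised 14 genes of HSP70 and HSP110, 3 of HSP90, 2 of the mitochondrial chaperonin, 8 small heat shock protein genes, 2 genes of HSP-binding proteins that share the Hspb prefix (Hspbp1, Hspbap1), and 4 Dnaja, 13 Dnajb and 28 Dnajc genes. The cells came from a spontaneous model of pancreatic ductal adenocarcinoma in mice on the C57BL/6 background and were sorted by flow cytometry for FAP (fibroblast activation protein), a protease on the surface of stromal cells. They were then divided by CD34, a surface sialomucin, into FAP+ CD34+ cells (2 libraries) and FAP+ CD34- cells (2 libraries). All 4 libraries therefore share the tumour model, the background and the FAP gate; the sources used here give neither the driver alleles, nor the age of the mice, nor the number of mice behind a library. RNA was amplified by MessageAmp, a linear amplification that starts from the poly(A) tail.

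HSP70 proteins bind unfolded stretches of client proteins and release them in a cycle driven by ATP. DnaJ proteins bring clients to HSP70 and stimulate its ATPase, HSP110 proteins and Hspbp1 act on nucleotide exchange, and HSP90 takes over clients such as kinases and steroid receptors. Small heat shock proteins hold aggregating proteins without ATP. The transcription factor HSF1 drives the stress-inducible members, and the unfolded protein response drives those of the endoplasmic reticulum, on which collagen-secreting fibroblasts depend.

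Total counts ranged from 10322354 to 14633561 per library, so a count of 0 allows up to 0.205 to 0.291 CPM (counts scaled to a common library total; 3 counts, counting error only). Cd34 itself was measured at 143 and 293 CPM in CD34+ against 18.3 and 23.9 CPM in CD34- libraries, and Fap was 79.0 and 39.8 against 142 and 136 CPM. The summed level of 12 fibroblast markers was similar in range (41819.7 to 42511 CPM in CD34+ and 38681 to 42308 CPM in CD34-). Of these 12, 4 were lower in both CD34+ libraries than in both CD34- libraries and 2 higher (33.3% and 16.7%). Over all tested genes these shares were 26.6% and 23.4%. Of 10 markers of pericytes and smooth muscle 9 were lower in this way (90%, sum 751 to 1200 against 1474 to 1548 CPM). Of 10 endothelial markers 8 were higher and 2 lower (80% and 20%, sum 79.6 to 107 against 43.7 to 47.3 CPM). The sums of the other markers were 594 to 889 against 432 to 825 CPM for 10 epithelial genes, 164 to 246 against 121 to 172 CPM for 10 myeloid genes, 228 to 397 against 151 to 246 CPM for 7 mesothelial genes, 12.2 to 24.4 against 3.35 to 3.63 CPM for 10 skeletal and cardiac muscle genes, and 3.30 to 21.9 against 0.957 to 1.44 CPM for 8 lymphocyte genes. No marker of any list was at 0 in all 4 libraries, and the part of these cells in the results below was not tested.

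Most chaperone genes had lower values in CD34+ cells, among them 13 of 14 HSP70 and HSP110 genes and all 4 Dnaja genes. No member passed the edgeR test, which called no gene at all. All members together took 1.07% and 1.22% of the counts in the CD34+ libraries and 1.48% and 1.43% in CD34- libraries, so the groups did not overlap. Of the 74 members 68 passed the filter on low counts and were tested. Of these 46 had a log2 fold change (CD34+ over CD34-) below 0 and 22 above, with a median of -0.20, against 51.3% below 0 and a median of -0.02 over all 13875 tested genes. By CPM, 21 members were lower in both CD34+ libraries than in both CD34- libraries (30.9% of those tested, against 26.6% of all tested genes), 7 were higher (10.3%, against 23.4%) and 40 overlapped.

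At an adjusted p of 0.05 over all tested genes, the edgeR quasi-likelihood test called 0 of 68 members, as it called 0% of all genes. Cd34, on which the cells were divided, was not called either (log2 fold change 3.37, adjusted p = 0.141, edgeR). DESeq2 did call Cd34 (adjusted p = 1.04e-11). The lack of an edgeR call is therefore no evidence that a member is equal between the fractions. At an unadjusted p of 0.05 edgeR picked 7 members lower (10.3%, against 6.65% of all genes) and 0 higher (against 9.81%). Those 7 were Hspa1a, Hspa1b, Hspd1, Dnaja2, Dnaja3, Dnaja4 and Dnajc14. DESeq2 called Hspa1a and Hspa1b lower (2 of the 199 genes it called lower, which are 1.46% of genes with an adjusted p), and limma voom called 0 members. In these bulk samples, fewer cells of a type and less RNA per cell cannot be told apart.

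**Figure D1:**
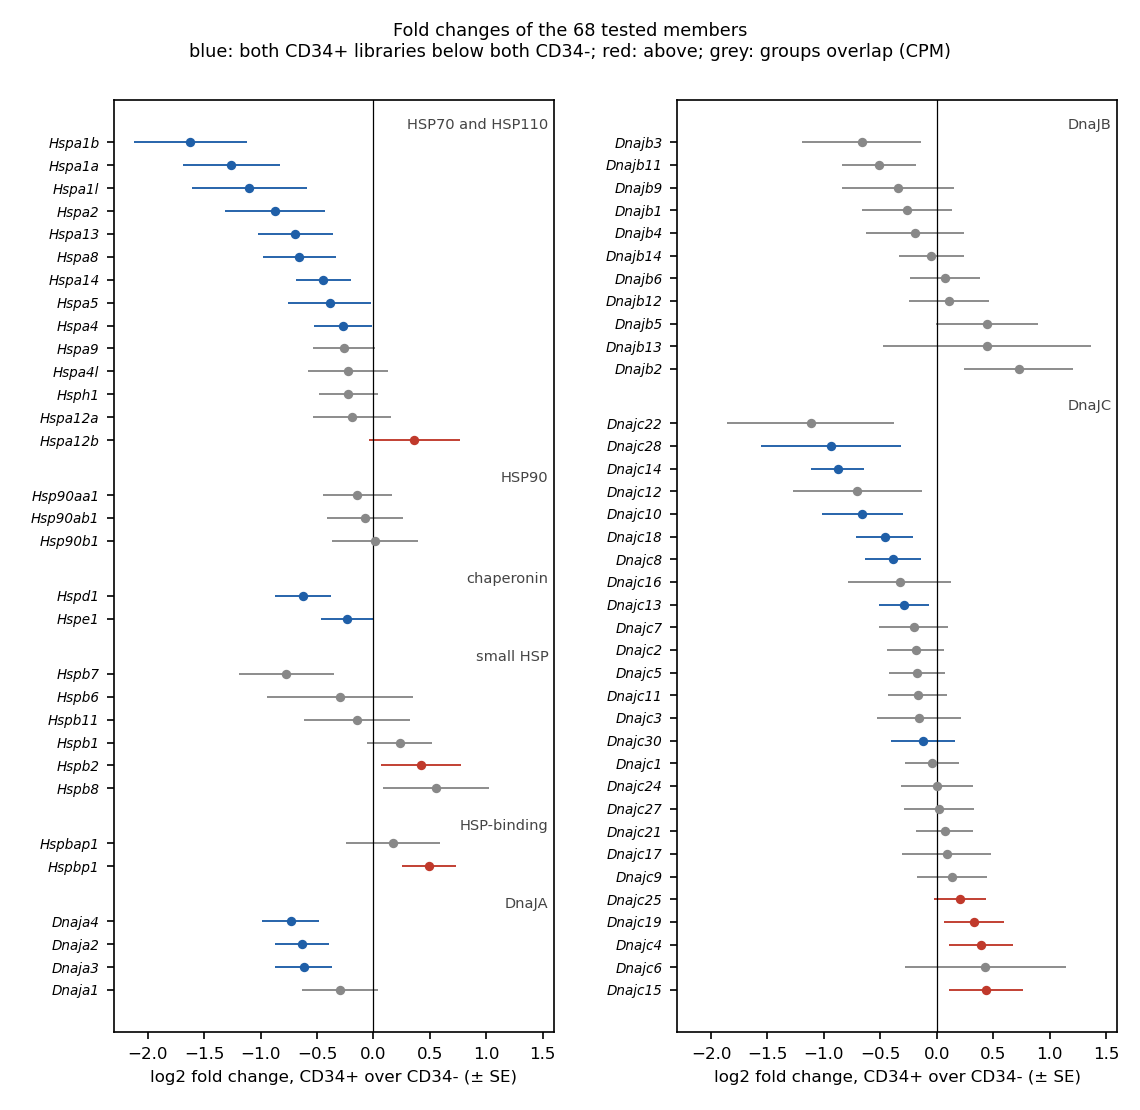
Log2 fold change (CD34+ over CD34-, edgeR, with its standard error) of each of the 68 tested members by family, on the horizontal axis; blue points mark genes lower in both CD34+ libraries than in both CD34- libraries by CPM, red points the opposite, grey points overlap. In HSP70 and HSP110, 13 of 14 points lie left of 0, while the DnaJB and small HSP points lie on both sides.

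The HSP70 family held the most negative log2 fold change of the 68 tested members, that of Hspa1b. The family took 0.349% and 0.403% of the counts in the CD34+ libraries and 0.663% and 0.596% in CD34- libraries. All but Hspa12b of its 14 members had a negative log2 fold change (median -0.42), 9 were lower in both CD34+ libraries without overlap (64.3%, against 26.6% of all tested genes) and 1, Hspa12b, was higher (5.33 and 5.71 against 4.84 and 3.90 CPM). Without Hspa1a and Hspa1b the family still summed to 3011 and 3087 CPM in the CD34+ libraries against 4040.0 and 4632 CPM in CD34- libraries. None of the 14 passed (smallest adjusted p = 0.230, edgeR). At an unadjusted p of 0.05 (edgeR) 2 were lower (14.3%, against 6.65% of all tested genes) and 0 higher (against 9.81%). DESeq2 called 2 lower, and it called 1.46% of genes with an adjusted p lower. The pericyte and smooth muscle markers moved the same way (sums of 751 to 1200 against 1474 to 1548 CPM), and their part in this was not tested.

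**Figure D2:**
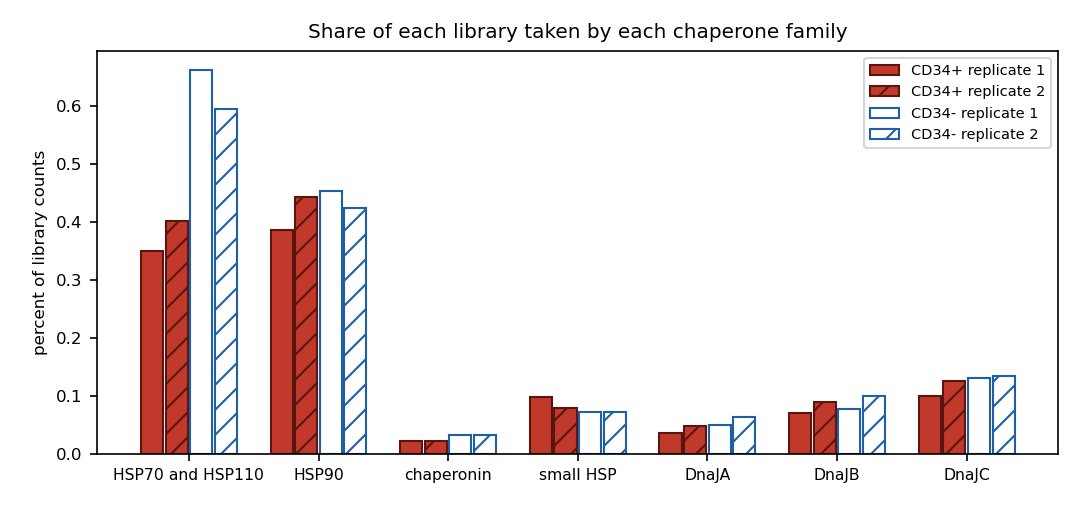
Percent of all counts of each library (vertical axis) that fell on each chaperone family; filled bars are CD34+ and open bars CD34- libraries, plain for replicate 1 and hatched for replicate 2. The HSP70 and HSP110 bars of the CD34- libraries (0.663% and 0.596%) stand above those of the CD34+ libraries (0.349% and 0.403%), while the HSP90 bars overlap.

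Hspa1a and Hspa1b encode the stress-inducible cytosolic HSP70, the classic product of the heat shock response. Hspa1a was 301 and 533 CPM in CD34+ replicates 1 and 2 and 1339 and 708 CPM in CD34- replicates 1 and 2. Both CD34+ libraries lay below both CD34- libraries, yet the 2 libraries of each group differed by 1.77-fold and 1.89-fold. The log2 fold change was -1.26 (SE 0.43, adjusted p = 0.257, edgeR). Hspa1b was 183 and 410 CPM in CD34+ and 1246 and 622 CPM in CD34- libraries, in the same order of libraries, with a log2 fold change of -1.63 (edgeR, SE 0.50, adjusted p = 0.230). DESeq2 called both lower (adjusted p = 0.043 and 0.0098). Over all alternatives the adjusted p ranged from 0.043 to 0.624 for Hspa1a and from 0.0098 to 0.589 for Hspa1b. The sign of neither gene turned, with log2 fold changes from -1.91 to -0.85 and from -2.32 to -1.16. The coding sequences are near-identical, so how reads were divided between them is uncertain. With both counts added, the log2 fold change was -1.42 (adjusted p = 0.252, edgeR). Hspa1l, an HSP70 gene that neighbours Hspa1a and is mainly known from testis, was scarce, at 1.55 and 1.98 against 4.99 and 2.80 CPM.

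The start regions of the inducible pair are near-identical as well, and they are shown because these 2 genes were the ones called by DESeq2. The windows, from RefSeq on GRCm38.p6, reach from 250 bases before to 50 bases after the start site and share 296 of 300 bases. They lie on the minus strand at chr17:34972107-34972406 for Hspa1a and chr17:34959189-34959488 for Hspa1b. Capitals mark a heat shock element of 2 facing cores, the site type that HSF1 binds, searched on both strands as GAANNTTC or TTCNNGAA. The match starts at -104 from the start site in both.
Hspa1a: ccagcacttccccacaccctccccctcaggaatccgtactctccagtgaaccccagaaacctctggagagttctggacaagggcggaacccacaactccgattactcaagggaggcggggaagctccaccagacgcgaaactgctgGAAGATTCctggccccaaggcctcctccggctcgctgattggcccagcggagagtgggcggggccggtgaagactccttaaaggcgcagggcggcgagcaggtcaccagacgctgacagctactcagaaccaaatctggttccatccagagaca
Hspa1b: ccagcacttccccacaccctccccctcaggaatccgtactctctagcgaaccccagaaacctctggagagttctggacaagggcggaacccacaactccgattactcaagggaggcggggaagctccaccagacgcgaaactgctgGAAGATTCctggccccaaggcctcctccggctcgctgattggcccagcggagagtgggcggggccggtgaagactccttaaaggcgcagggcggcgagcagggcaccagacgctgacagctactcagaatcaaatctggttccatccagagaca

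Hspa8 encodes the constitutive cytosolic HSP70 (HSC70), the most abundant member by mean RPKM. It was 1263 and 1177 CPM in CD34+ against 1961 and 1940.2 CPM in CD34- libraries. The replicates of each group lay within 1.07-fold and 1.01-fold of each other and the groups were apart, with a log2 fold change of -0.66 (edgeR, SE 0.32, adjusted p = 0.362). RPKM (reads scaled by gene length and depth) was used to compare genes within a library. Amplification started from the poly(A) tail and coverage along genes was not examined, so such comparisons are approximate. Relative to Hspa8 by RPKM, Hspa1a plus Hspa1b amounted to 0.287 and 0.601 in CD34+ against 0.989 and 0.515 in CD34- libraries. This ratio overlapped between the groups, so the inducible genes were not set apart from Hspa8 in every library. Hspa4, an HSP110-type exchange factor by sequence, was 152 and 168 against 181 and 208 CPM, without overlap (log2 fold change -0.27, SE 0.26). Hspa14, a ribosome-associated HSP70, was 25.9 and 22.7 against 35.1 and 32.0 CPM, and Hspa2, best known from male germ cells, was 18.4 and 42.9 against 46.0 and 66.3 CPM.

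Hsph1 encodes the inducible HSP110 (HSP105). It was 96.5 and 130.0 CPM in CD34+ against 129.7 and 137 CPM in CD34- libraries, where CD34+ replicate 2 matched CD34- replicate 1. Its error exceeded the difference (log2 fold change -0.22, SE 0.26, adjusted p = 0.691, edgeR). It has 2 RefSeq windows, and 1 is shown as that of an inducible member without a separation of the groups. The window shown lies on the minus strand at chr5:149636266-149636565 (GRCm38.p6). It holds matches of 2 cores, again in capitals, starting at -54, 16 and 21. In the other window, chr5:149636287-149636586, the same matches start at -33, 37 and 42. The matches at 16 and 21 overlap and form an element of 3 cores (TTCNNGAANNTTC or GAANNTTCNNGAA on both strands, which contains the match of 2 cores).
Hsph1: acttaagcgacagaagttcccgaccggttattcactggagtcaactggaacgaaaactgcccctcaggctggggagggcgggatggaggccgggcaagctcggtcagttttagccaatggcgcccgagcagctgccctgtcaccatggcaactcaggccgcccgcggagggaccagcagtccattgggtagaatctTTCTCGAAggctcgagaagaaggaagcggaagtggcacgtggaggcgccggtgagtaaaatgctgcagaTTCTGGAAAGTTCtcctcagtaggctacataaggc

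**Figure D3:**
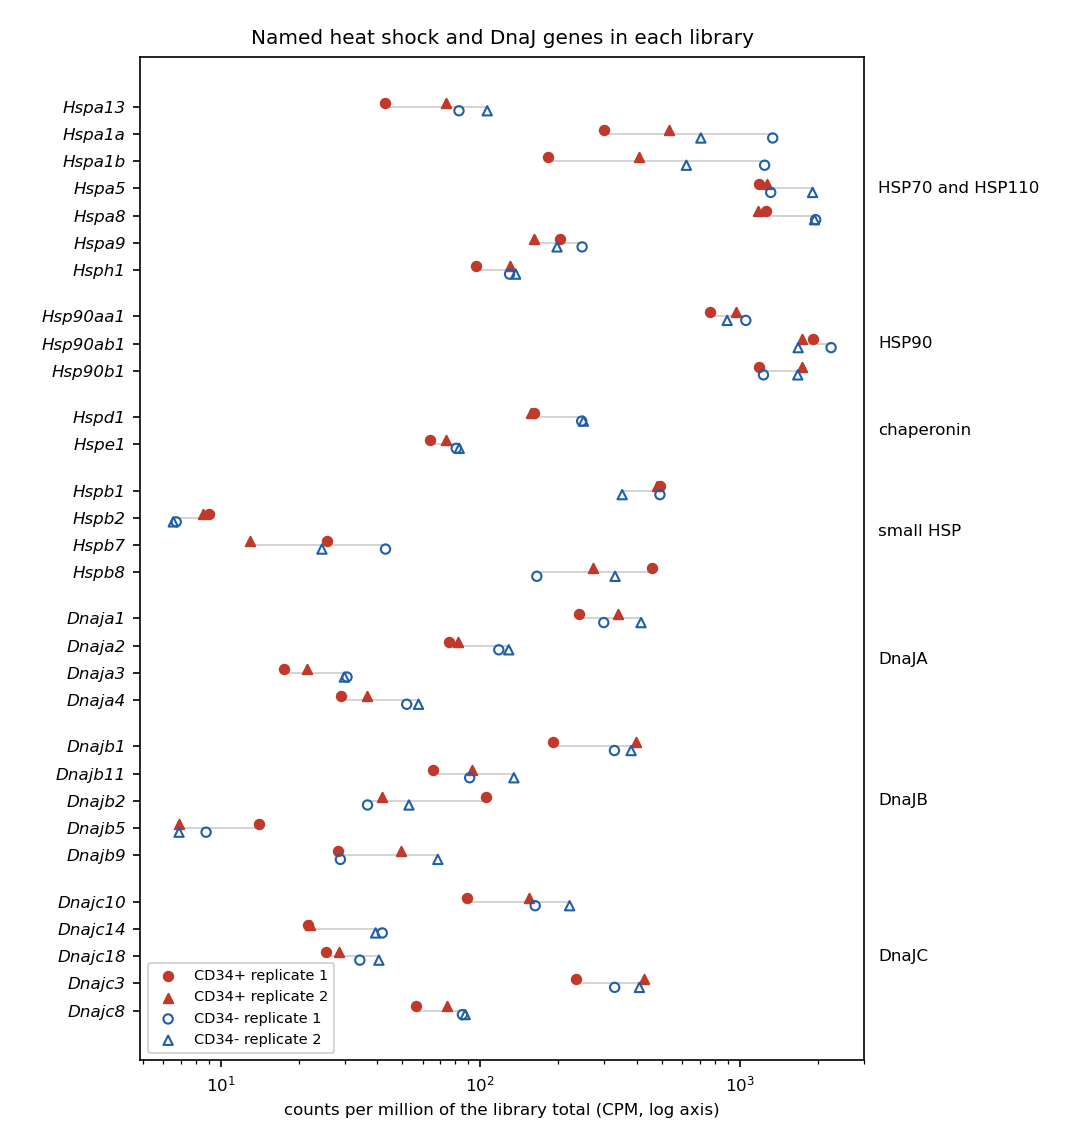
CPM (log axis) of the 30 members named by rule in each of the 4 libraries, grouped by family; filled red symbols are CD34+ and open blue symbols CD34-, circles replicate 1 and triangles replicate 2. Hspa1a and Hspa1b spread widest within HSP70, Hspa8 and Hspd1 show tight pairs that are apart, and the HSP90 symbols are interleaved.

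The 3 HSP90 genes did not separate the fractions. Hsp90ab1, the constitutive cytosolic HSP90, was 1914 and 1735 CPM in CD34+ against 2249 and 1678 CPM in CD34- libraries (fitted log2 fold change -0.08, SE 0.34, adjusted p = 0.925, edgeR). Hsp90aa1, its inducible counterpart, was 770.4 and 968 against 1055 and 894 CPM (-0.14, SE 0.31, adjusted p = 0.835, edgeR). Both CD34+ libraries lay between the CD34- libraries for Hsp90ab1, and for Hsp90aa1 one lay between them and one below. By RPKM Hsp90aa1 stood at 0.354 and 0.491 of Hsp90ab1 in CD34+ against 0.413 and 0.469 in CD34- libraries, again overlapping. The family took 0.387% and 0.444% of counts against 0.454% and 0.424%.

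Chaperones of the endoplasmic reticulum were among the most abundant members. The 8 listed for it by hand were Hspa5, Hsp90b1, Hspa13, Dnajb9, Dnajb11, Dnajc1, Dnajc3 and Dnajc10. Of these, 3 were lower in both CD34+ libraries without overlap (37.5%, against 26.6% of all tested genes). Hspa5 encodes BiP (GRP78), the HSP70 of this compartment and the sensor-binding chaperone of the unfolded protein response. It was 1181 and 1271 CPM in CD34+ against 1316 and 1907 CPM in CD34- libraries. The groups did not overlap, but CD34+ replicate 2 and CD34- replicate 1 were close, and the difference was about the size of its error (log2 fold change -0.39, SE 0.37, adjusted p = 0.610, edgeR). Without CD34- replicate 2 it was -0.014. Hsp90b1 encodes GRP94, the HSP90 of the compartment, and was 1181 and 1739 against 1234 and 1672 CPM, a log2 fold change of 0.01 (edgeR, SE 0.38, adjusted p = 0.991). For Hsp90b1 the libraries within each fraction were further apart than the fractions were.

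Hspa13, a microsomal HSP70, was 43.1 and 73.5 CPM in CD34+ against 82.8 and 106 CPM in CD34- libraries (fitted log2 fold change -0.69, SE 0.34, adjusted p = 0.359, edgeR). Dnajc10 encodes ERdj5, a disulfide reductase that works with BiP in degradation, and was 89.0 and 153 against 163 and 221 CPM (-0.66, SE 0.36, adjusted p = 0.399, edgeR). Both were lower in the CD34+ libraries without overlap. The other listed cochaperones of BiP overlapped. Dnajb11 (ERdj3) was 65.6 and 92.6 against 91.0 and 135 CPM, Dnajb9 (ERdj4) 28.3 and 49.3 against 28.9 and 68.6 CPM, Dnajc3 (p58IPK) 234 and 427 against 329 and 410.3 CPM and Dnajc1 (ERdj1) 117 and 138 against 140 and 126 CPM.

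The windows of Hspa5 (chr2:34771840-34772139, plus strand) and Hsp90b1 (chr10:86705395-86705694, minus strand; RefSeq, GRCm38.p6) are shown because they hold the element through which the unfolded protein response acts. Capitals mark the ER stress element, searched as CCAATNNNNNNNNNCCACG on both strands. It starts at -65 in Hspa5 and at -212 and -107 in Hsp90b1. Of 60 members with a RefSeq window, 3 held it (5%), Dnajc3 being the third, against 0.137% of the 27025 genes with a window.
Hspa5: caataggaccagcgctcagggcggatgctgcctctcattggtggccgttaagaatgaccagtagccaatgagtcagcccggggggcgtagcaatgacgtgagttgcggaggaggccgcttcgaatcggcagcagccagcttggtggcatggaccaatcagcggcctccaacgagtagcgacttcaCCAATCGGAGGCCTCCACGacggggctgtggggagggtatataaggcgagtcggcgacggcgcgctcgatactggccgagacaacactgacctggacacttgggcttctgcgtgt
Hsp90b1: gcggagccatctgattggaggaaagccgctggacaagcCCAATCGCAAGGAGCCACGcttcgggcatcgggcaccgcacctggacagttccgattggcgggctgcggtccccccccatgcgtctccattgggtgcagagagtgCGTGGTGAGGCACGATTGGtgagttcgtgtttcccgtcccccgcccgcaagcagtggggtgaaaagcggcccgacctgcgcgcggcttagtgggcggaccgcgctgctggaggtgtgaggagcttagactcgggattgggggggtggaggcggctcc

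In mitochondria, HSP60 and its lid HSP10 form the folding chamber of the matrix, encoded by Hspd1 and Hspe1. Hspd1 was 161 and 156 CPM in CD34+ against 246 and 249.8 CPM in CD34- libraries. Replicates agreed within 1.03-fold and 1.02-fold and the groups were apart, with a log2 fold change of -0.63 (edgeR, SE 0.25, adjusted p = 0.295; unadjusted p = 0.045). Hspe1 was 64.0 and 73.6 against 80.8 and 83.0 CPM, the same direction with a smaller log2 fold change of -0.24 (edgeR, SE 0.23, adjusted p = 0.627). By RPKM Hspd1 stood at 0.828 and 0.699 of Hspe1 in CD34+ against 1.00 and 0.992 in CD34- libraries. Hspa9 (mortalin), the HSP70 that pulls proteins into the matrix, overlapped at 204 and 161 against 247 and 198 CPM (-0.26, SE 0.27). Its partner Dnaja3 (TID1) was 17.5 and 21.5 against 30.6 and 29.9 CPM (-0.62, SE 0.25, adjusted p = 0.301, edgeR), without overlap. Of the DnaJ-type proteins of the import motor, Dnajc15 was 11.3 and 10.8 against 8.17 and 8.34 CPM and Dnajc19 was 19.2 and 22.7 against 16.6 and 17.0 CPM, so both stood higher in the CD34+ libraries without overlap.

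Hspd1 and Hspe1 are head-to-head genes with one start region, and it is shown because both genes lay lower together. Of the 2 RefSeq windows of Hspd1, the one at chr1:55087883-55088182 (minus strand, GRCm38.p6) is shown, and the other held no match. The one shown shares 285 of 300 bases with the Hspe1 window on the opposite strand and holds 3 overlapping matches of 2 cores (capitals) starting at -144, -139 and -134.
Hspd1: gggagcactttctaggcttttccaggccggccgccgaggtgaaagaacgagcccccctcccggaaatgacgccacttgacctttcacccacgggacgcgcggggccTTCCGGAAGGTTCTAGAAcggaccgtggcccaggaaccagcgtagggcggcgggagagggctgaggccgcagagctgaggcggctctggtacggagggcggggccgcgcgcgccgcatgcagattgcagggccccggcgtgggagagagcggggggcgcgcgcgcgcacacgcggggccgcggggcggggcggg

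Small heat shock proteins had the opposite order to the HSP70 family in summed level. They took 0.0990% and 0.0788% of counts in the CD34+ libraries and 0.0723% and 0.0723% in CD34- libraries. Most of this was Hspb1 and Hspb8. The sum of skeletal and cardiac muscle markers was also higher in CD34+ libraries (12.2 to 24.4 against 3.35 to 3.63 CPM). Of those 10 genes 8 were too low to be tested. The sum of pericyte and smooth muscle markers was lower in CD34+ libraries (751 to 1200 against 1474 to 1548 CPM). The part of these cells was not tested. Hspb1 encodes HSP27, which binds actin filaments and unfolded proteins, and was 491 and 482 against 492 and 352 CPM (log2 fold change 0.23, SE 0.29, adjusted p = 0.702, edgeR). Hspb8, the partner of the autophagy adaptor BAG3, was 457 and 271 against 165 and 331 CPM (0.55, SE 0.47, adjusted p = 0.571, edgeR). CD34+ replicate 1 was the highest and CD34- replicate 1 the lowest for Hspb8, with the other two in between and crossed.

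Hspb2 was 9.01 and 8.57 against 6.73 and 6.56 CPM (0.42, SE 0.35, adjusted p = 0.567, edgeR). Of the 6 tested genes of the family only Hspb2 did not overlap (16.7% higher, against 23.4% of all tested genes). Its gene overlaps Cryab, the alpha B-crystallin gene, in the GRCm38 annotation, and without the strand setting of the counting their reads cannot be told apart. Hspb7 had the smallest p of the family and a negative log2 fold change, against the order of the family sum. It was 25.6 and 13.0 against 43.1 and 24.5 CPM, overlapping (-0.77, SE 0.42, adjusted p = 0.40, edgeR). Hspb6 was 1.55 and 5.42 against 5.37 and 3.42 CPM. Hspb3 and Hspb9 had at most 5 counts in a library and were not tested. Hspb11, a component of intraflagellar transport that carries the prefix, was 5.13 and 8.65 against 10.4 and 5.33 CPM.

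Dnaja genes encode the class with the full set of J, zinc finger and substrate-binding domains, and all 4 had a negative log2 fold change (median -0.62). Dnaja4 was 29.0 and 36.6 CPM in CD34+ against 52.0 and 57.8 CPM in CD34- libraries (-0.73, SE 0.25, adjusted p = 0.260, edgeR). Dnaja2 (HSP40 type of the cytosol) was 76.0 and 81.8 against 118 and 129 CPM (-0.63, SE 0.24, adjusted p = 0.285, edgeR). In these 2 genes and in Dnaja3 the groups were apart by more than the replicates, and each had an unadjusted p below 0.05 (0.026, 0.038 and 0.048). Dnaja1, the most abundant Dnaja gene by CPM and RPKM, overlapped at 241 and 341 against 299 and 416 CPM (-0.30, SE 0.34, adjusted p = 0.678, edgeR).

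Dnaja4 had the smallest p of the class, and of its 2 windows the one that holds the heat shock element is shown (chr9:54699309-54699608, plus strand, RefSeq, GRCm38.p6). Matches of 2 cores (capitals) start at -90 and -52.
Dnaja4: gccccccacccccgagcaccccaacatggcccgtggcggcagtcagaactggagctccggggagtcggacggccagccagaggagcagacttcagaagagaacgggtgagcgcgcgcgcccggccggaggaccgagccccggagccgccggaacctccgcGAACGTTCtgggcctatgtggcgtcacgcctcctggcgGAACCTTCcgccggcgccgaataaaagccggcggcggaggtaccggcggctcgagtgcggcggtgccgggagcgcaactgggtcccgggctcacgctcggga

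None of the 11 tested Dnajb genes was free of overlap in either direction, against 26.6% lower and 23.4% higher of all tested genes. Their median log2 fold change was -0.05. Dnajb1 encodes HSP40, the inducible partner of Hspa1a, yet it was 191 and 398 against 329 and 381 CPM, with the CD34+ libraries as the lowest and the highest (-0.26, SE 0.40, adjusted p = 0.760, edgeR). Without CD34+ replicate 1 its log2 fold change was 0.15. Dnajb4, a related cytosolic gene, also overlapped, at 56.2 and 123 against 80.8 and 123 CPM. Dnajb6, a suppressor of aggregation, was 214 and 154 against 155 and 197 CPM. Dnajb2, encoding a J protein with ubiquitin-interacting motifs, was 106 CPM in CD34+ replicate 1 and 41.7, 36.8 and 53.1 CPM in CD34+ replicate 2 and the CD34- libraries, so that its positive log2 fold change (0.73, SE 0.49, adjusted p = 0.484, edgeR) rested on 1 library and was -0.13 without it. Dnajb5 did likewise at 14.0 and 6.89 against 8.78 and 6.90 CPM. Dnajb7 and Dnajb8 had at most 4 counts in a library and were not tested.

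Dnajc genes, which share little beyond the J domain, were mixed: of 26 tested, 16 were negative and 10 positive (median -0.16), and without overlap 7 were lower (26.9%, against 26.6% of all tested genes) and 4 higher (15.4%, against 23.4%). Dnajc14 had the smallest p of all members. It was 21.7 and 22.0 CPM in CD34+ against 41.9 and 39.5 CPM in CD34- libraries, so replicates agreed within 1.06-fold and the groups were apart (-0.88, SE 0.23, unadjusted p = 0.0086, adjusted p = 0.209, edgeR). In the GRCm38 annotation it overlaps Ormdl2 and Tmem198b, whose reads could enter its count. Dnajc8, a splicing-associated J protein, was 56.4 and 74.2 against 85.3 and 87.5 CPM (-0.39, SE 0.25), and Dnajc18 was 25.4 and 28.6 against 34.3 and 40.7 CPM (-0.46, SE 0.26). Dnajc13, which works on endosomes, was also lower without overlap (44.0 and 42.1 against 54.6 and 52.1 CPM), while Dnajc25 was higher (36.9 and 39.8 against 33.8 and 33.5 CPM). Dnajc5, encoding the cysteine string protein of vesicles, overlapped at 95.3 and 84.9 against 118 and 89.4 CPM, and so did Dnajc7, a J protein that binds both HSP70 and HSP90 (81.3 and 54.1 against 93.1 and 66.4 CPM). Dnajc5b and Dnajc5g had at most 4 counts in a library and were not tested.

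Hspbp1, which promotes nucleotide release from HSP70, lay opposite to its HSP70 partners. It was 28.9 and 29.7 CPM in CD34+ against 22.0 and 20.2 CPM in CD34- libraries, without overlap (log2 fold change 0.49, SE 0.24, adjusted p = 0.359, edgeR). Hspbap1, a binding protein of HSP27, was 5.23 and 8.72 against 6.20 and 6.29 CPM.

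Within libraries, a few members carried most of the chaperone transcripts. Hsp90ab1, Hspa8 and Hsp90b1 made up 36.7% to 40.8% of all member counts, and the top 8 (with Hspa5, Hsp90aa1, Hspa1a, Hspa1b and Hspb1) 68.2% to 73.5%. By RPKM, Hsp90ab1 was first in both CD34+ libraries (428 and 503 RPKM) and Hspa8 in both CD34- libraries (762 and 795 RPKM). Hspa8 ranked 144 and 155 among all 22609 genes in the CD34+ libraries and 58 and 51 in CD34- libraries. Hspa1a ranked 730 and 411 against 156 and 300, and Hspb1 160 and 162 against 133 and 190. Hspb1 stood above Hspa5 in both CD34+ libraries (305 and 388 against 253 and 353 RPKM) and in CD34- replicate 1 (446 against 411 RPKM). Only in CD34- replicate 2 did Hspa5 (629 RPKM) stand above Hspb1 (336 RPKM). At the other end, 10 of the 68 tested members had a mean under 5 CPM.

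The partners and regulators of the chaperones were described from lists. Of 31 tested genes of the HSF1 and cytosolic co-chaperone list, 0 passed in edgeR. At an unadjusted p of 0.05 (edgeR) 1 was higher (against 9.81% of all tested genes) and 2 lower (6.45%, against 6.65%). DESeq2 called 1, Unc45b, among the 352 genes it called higher. Without overlap 8 were higher and 14 lower (25.8% and 45.2%, against 23.4% and 26.6% of all tested genes). The median log2 fold change was -0.12. Hsf1, chosen for its role, was 23.0 and 17.2 against 15.4 and 13.0 CPM. The smallest p among genes of at least 5 CPM were those of Unc45b, a myosin chaperone (24.4 and 7.77 against 2.50 and 2.46 CPM, log2 fold change 2.72, SE 0.62, adjusted p = 0.178, edgeR, and from 7.6e-04 to 0.573 over the alternatives), Fkbp5, a cochaperone of steroid receptors (54.3 and 62.3 against 131 and 76.5 CPM) and St13, which binds HSP70 (59.5 and 67.6 against 108 and 89.7 CPM). Skeletal and cardiac muscle markers moved with Unc45b, since their sum was 12.2 to 24.4 CPM in CD34+ and 3.35 to 3.63 CPM in CD34- libraries. Pericyte and smooth muscle markers moved the other way (751 to 1200 against 1474 to 1548 CPM). The part of these cells was not tested. Bag3, the adaptor of Hspb8, was chosen after its values were seen and was higher in both CD34+ libraries (474 and 351 against 186 and 278 CPM, log2 fold change 0.84, SE 0.36, adjusted p = 0.31, edgeR). Cryab, a small heat shock protein whose name falls outside the member rule, was 99.6 and 86.2 against 55.3 and 58.6 CPM (0.72, SE 0.24, adjusted p = 0.253, edgeR).

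Of 26 genes for other chaperones and regulators of the endoplasmic reticulum and the unfolded protein response, 0 passed (median -0.31). Without overlap 14 were lower and 2 higher (53.8% and 7.69%, against 26.6% and 23.4% of all tested genes). Serpinh1, the collagen chaperone HSP47, was 1270.4 and 1454 against 2125 and 2399 CPM (log2 fold change -0.72, SE 0.34, adjusted p = 0.346, edgeR). Asns was 25.6 and 22.4 against 48.6 and 29.2 CPM, and Ddit3, encoding the stress factor CHOP, was 36.4 and 36.6 against 28.7 and 25.0 CPM. In the cytosolic chaperonin TRiC and prefoldin, 7 of 13 were lower and 1 higher (53.8% and 7.69%, beside the same shares of all tested genes, median -0.23). Tcp1 was 105 and 116 against 207 and 148 CPM and Cct6a 111 and 102 against 184 and 147 CPM. Vbp1 was 18.6 and 38.1 against 45.2 and 57.7 CPM. In mitochondrial protein quality control 7 of 12 were lower (58.3%, against 26.6% of all tested genes) and 0 higher (against 23.4%), with a median of -0.41. Tomm70a, an import receptor, was 28.7 and 39.9 against 58.6 and 45.6 CPM. In each of these 3 lists 0 genes passed (edgeR), and DESeq2 called 0, 0 and 0. At an unadjusted p of 0.05 (edgeR) the lower genes numbered 0, 2 and 0, against 6.65% of all tested genes. The higher genes numbered 0, against 9.81%.

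Immediate early genes, transcription factors and regulators that cells induce within minutes of a stimulus, had mostly positive log2 fold changes, 18 of 22 (median 0.46). Without overlap 9 were higher (40.9%, against 23.4% of all tested genes) and 1 lower (4.55%, against 26.6%). In edgeR 0 passed. At an unadjusted p of 0.05 (edgeR) 4 were higher (against 9.81% of all tested genes) and 0 lower (against 6.65%). DESeq2 called 0. Fosb was 2722 and 2575 against 736 and 1588 CPM and Myc 238 and 236 against 88.6 and 137 CPM, whereas Fos (1943 and 5110 against 3304 and 3313 CPM) and Jun (1155 and 2837 against 2167 and 1984 CPM), chosen for their role, overlapped. Hypoxia and glycolysis genes mostly lay lower (median -1.20). Without overlap 9 of 12 were lower (75%, against 26.6% of all tested genes) and 3 higher (25%, against 23.4%). In edgeR 0 passed. At an unadjusted p of 0.05 (edgeR) 6 were lower (50%, against 6.65%) and 1 higher (against 9.81%). DESeq2 called 7, of which all but Ndrg1 were lower, and it called 1.46% of genes with an adjusted p lower. Slc2a1 was 132 and 109 against 380.0 and 328 CPM, Pdk1 13.5 and 15.8 against 53.3 and 36.0 CPM and P4ha1 137 and 179 against 455 and 468 CPM. Ndrg1, chosen after its values were seen, was higher at 1339 and 726 against 308 and 491 CPM (log2 fold change 1.38; adjusted p = 0.25 by edgeR and 0.0488 by DESeq2, with 0.618 the highest over the alternatives).

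**Figure D4:**
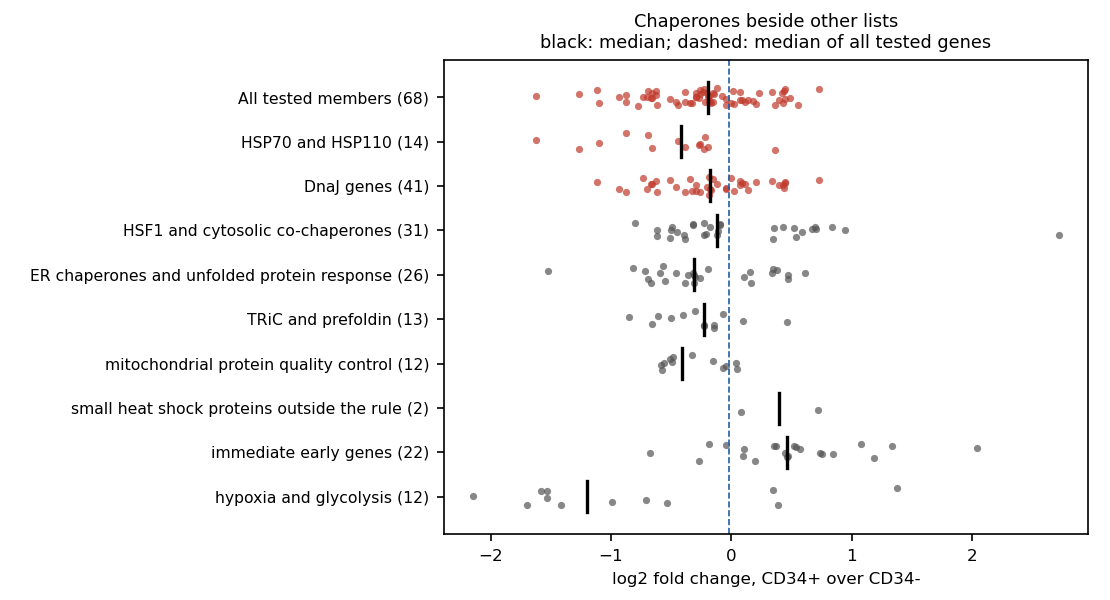
Log2 fold change (CD34+ over CD34-) of each tested member and of each tested gene of the other lists, 1 point per gene, with the number of genes in brackets, black bars for medians and a dashed line for the median of all tested genes (-0.02). The HSP70 median of -0.42 and the endoplasmic reticulum median of -0.31 lie left of the line and the immediate early median of 0.46 lies right of it.

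Members with and without a heat shock element spanned overlapping log2 fold changes. A match of 2 cores was found in 16 of the 60 members with a RefSeq window (26.7%), against 17.0% of the 27025 genes, and one of 3 cores in 4 (6.67%: Dnajb6, Hspd1, Hspe1 and Hsph1), against 0.662%. The 14 tested members with a match of 2 cores had log2 fold changes from -1.63 to 0.55 (median -0.27; 6 lower and 0 higher without overlap). The 41 tested members with a window and no match ranged from -1.10 to 0.73 (median -0.16; 11 lower and 6 higher). Over all tested genes 26.6% were lower and 23.4% higher in this way. Hspa1a with Hspa1b, and Hspd1 with Hspe1, have near-identical or shared windows but were counted as separate genes. All of them are among the 6 lower. A match is a description of the letters in this window only.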

How the data were processed

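RNA of 4 libraries was measured by sequencing: 2 of FAP+ CD34+ and 2 of FAP+ CD34- cells, grouped by their titles. Bowtie2, TopHat2, HTSeq, edgeR and the build mm9 are named, per the submitters' processing notes; neither versions nor a strand setting appear there. The authors deposited whole-number counts for 22609 genes, not normalized, which are the main data. The authors also deposited RPKM, used for comparing genes within a library, and FPKM with estimated counts of fragments (rounded here), used as alternatives. The RPKM of the authors were scaled by totals other than the sums of the counts: count total over RPKM total was 65.0%, 84.3% and 94.8% of that in CD34- replicate 2 in CD34+ replicates 1 and 2 and CD34- replicate 1. Beside the samples of this series, each deposited file has 14 columns of values that match none of its labels and were not used.

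Counts were tested by edgeR 4.0.16 (R 4.3.3; quasi-likelihood, two-sided) with TMM scaling and filterByExpr, group as the only term, Benjamini-Hochberg over 13875 genes. Standard errors are the fold change over the square root of F. Printed CPM use the column total; TMM factors ranged from 0.961 to 1.05. An exact permutation test of 2 against 2 cannot go below p = 0.333 and none was run. In edgeR, p-values and standard errors rest on the spread between these libraries. The variance of each gene was drawn toward that of all genes (prior degrees of freedom 4.17, residual 2). Alternatives used DESeq2 1.42.0, limma 3.58.1, other scalings and filters, the replicate block and leaving out each library. The steps were tested on simulated data whose planted log2 fold changes exceeded in size those fitted for every member. That run therefore does not measure the power to call members.

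Values are given for 14 canonical members, up to 4 members of smallest p per family from 5 CPM and the highest by RPKM, which makes 30, for up to 3 genes per other list, and for further members chosen after their values were seen. Members and lists were chosen with earlier results of these data known. All 74 names matched a RefSeq symbol; 32 overlap another gene of GRCm38, where reads cannot be told apart. Promoter windows are from RefSeq, build GRCm38.p6.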

Additional observations from a re-analysis of the deposited data

How the results depend on the processing

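The count of members called was 0 in every alternative run except DESeq2, which called 2. The count of all genes called was 0 in the main analysis, 2 with scaling by library size, 2 with a filter of 1 CPM in 2 libraries, 331 with no filter, 551 by DESeq2 and 51 by limma on log2(RPKM + 0.1). With the replicate number as a block it was 62, of which 0 were members. Same-numbered libraries deviated together with r = 0.24 over genes, but no source says what a number shares, so pairing was not assumed. Without each library in turn, 44 to 53 members did not overlap, against 28 in all 4 libraries, as fewer samples were compared. Scaling moved this count too. With all 4 libraries it was 41 by RPKM and by FPKM and 35 with DESeq2 size factors. The share over all genes was not computed for these runs.

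Of the 30 named members 19 kept their sign in every alternative run. The scales of RPKM + 1, RPKM + 0.1 and FPKM + 1 shifted the median of all genes to -0.31, -0.42 and -0.31 on the log2 scale. There the sign turned for Hsp90b1 (-0.40, -0.40 and -0.26), Hspb1 (-0.17, -0.17 and -0.41) and Dnajb5 (-0.036, -0.054 and -0.18), and on FPKM for Hspb2 (-0.22). Hsp90b1 was -0.073 with no filter and -0.035 by DESeq2. With estimated fragment counts Hsp90aa1 (0.088), Dnajb9 (0.0061) and Dnajc3 (0.067) turned. Leaving out each library in turn moved Hsp90ab1 between -0.21 and 0.035 (without CD34- replicate 1), Hsp90b1 between -0.30 (without CD34+ replicate 2; -0.28 without CD34- replicate 1) and 0.33, and Dnaja1 between -0.61 and 0.046 (without CD34- replicate 2). Without CD34+ replicate 1, Dnajb1 turned (range -0.88 to 0.15), as did Dnajb2 (-0.13 to 1.23), Dnajb5 (-0.19 to 0.86) and Dnajc3 (-0.65 to 0.19). Without CD34- replicate 2, Dnajb9 (-0.91 to 0.51) and Dnajc3 (0.093) turned. The cause was not tested. Hspa1a and Hspa1b passed in DESeq2 alone. In HSP70, 11 to 14 of 14 members were negative across the alternatives with a fold change for each.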

Other observations

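Several chaperones of the endoplasmic reticulum differed by replicate number as well as by fraction, a pattern chosen after the values were seen. Of 8 members listed for this compartment, 7 were lower in replicate 1 than in replicate 2 of both fractions. The share of all tested genes was 24.4%. The exception within the list was Dnajc1. The list was set by hand and does not hold every member tied to the compartment. Outside it, Dnajb12 was higher in replicate 1 of both fractions and Dnajc18 was lower. Dnajb14 and Dnajc14 were lower in replicate 1 of CD34+ and higher in replicate 1 of CD34- cells. Summed over the 8, the replicates numbered 1 had 2939.9 CPM (CD34+) and 3384 CPM (CD34-), and those numbered 2 had 3944 and 4647 CPM, so that within each number the CD34+ sum was the lower one. Of the 26 genes of the endoplasmic reticulum and unfolded protein response list 15 were lower in replicate 1 of both fractions. Of 6 mitochondrial members listed by hand 2 were, and of 13 genes of TRiC and prefoldin 1. Immediate early genes shared this order in 11 of 22. By contrast, 8 of 10 epithelial markers were higher in replicate 1 of both fractions, against 4593 of all 13875 tested genes. No source says whether a number marks shared mice, a day or a sort, and no test was run.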
